A study of Mus musculus with 6 samples.

Results

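Leucine, isoleucine and valine, the branched-chain amino acids, are broken down in mitochondria, and 10 genes encode the enzymes that carry leucine through the early steps of this route. They are the transaminases *Bcat1* and *Bcat2*, the subunits *Bckdha*, *Bckdhb*, *Dbt* and *Dld* of the branched-chain α-ketoacid dehydrogenase complex (BCKDH), isovaleryl-CoA dehydrogenase (*Ivd*), the subunits *Mccc1* and *Mccc2* of 3-methylcrotonyl-CoA carboxylase (MCC), and the hydratase *Auh*. All 10 were found by gene name among the 55060 genes of the expression table. *Ivd* was chosen by its higher value in cKO than in Ctrl islets, so its difference is described here without a test, whereas the other 9 genes were chosen for their place before and after it in the pathway. That choice was made with earlier results of these data known. The samples were islets isolated from 12-week-old mice, 3 samples labelled Ctrl and 3 labelled cKO (CKO in the genotype field), with no treatment named. In cKO mice, Cre under the *Ins2* promoter removes exon 7 of the floxed *Parn* gene, which encodes a poly(A)-specific ribonuclease, in β cells. Ctrl animals were *Parn* f/f mice and other littermates. The labels do not tell which Ctrl samples carried Cre or how many animals stood behind a sample. Where Ctrl lacked Cre, the loss of *Parn* and the Cre transgene cannot be told apart. The floxed allele was made in C57BL/6 zygotes, the sex of the mice is not labelled, and the α, δ and other islet cells, which lack Cre, contribute RNA to every sample.

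Breakdown starts when a transaminase passes the amino group to α-ketoglutarate, with BCAT1 in the cytosol and BCAT2 in mitochondria. BCKDH then removes the carboxyl group and commits the carbon skeleton to oxidation. It is built from an E1 component of α and β chains (*Bckdha*, *Bckdhb*), an E2 core (*Dbt*) and an E3 component (*Dld*) that it shares with other dehydrogenase complexes. From this step the arms part, and leucine passes through isovaleryl-CoA dehydrogenase, the biotin-dependent MCC and the hydratase encoded by *Auh*. A later cleavage gives acetyl-CoA and acetoacetate. In β cells leucine is known as a fuel and as an activator of glutamate dehydrogenase that stimulates insulin release.

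*Ivd* and *Bckdhb* were the members whose cKO samples lay above every Ctrl sample, and the sequence before their start sites is shown for that reason. Both stretches are from RefSeq (GRCm38.p6), on the plus strand, 5′ to 3′, and end before the start of the gene in the deposited table. That of *Ivd* is chr2:118861744-118861953 and that of *Bckdhb* is chr9:83924887-83925136. Capitals mark a match to the palindrome TTCNNNGAA, the recognition motif of STAT proteins.
Ivd: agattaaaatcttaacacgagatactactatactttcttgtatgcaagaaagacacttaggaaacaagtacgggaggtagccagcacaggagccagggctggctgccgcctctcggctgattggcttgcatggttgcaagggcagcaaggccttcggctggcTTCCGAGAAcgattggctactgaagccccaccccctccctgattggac
Bckdhb: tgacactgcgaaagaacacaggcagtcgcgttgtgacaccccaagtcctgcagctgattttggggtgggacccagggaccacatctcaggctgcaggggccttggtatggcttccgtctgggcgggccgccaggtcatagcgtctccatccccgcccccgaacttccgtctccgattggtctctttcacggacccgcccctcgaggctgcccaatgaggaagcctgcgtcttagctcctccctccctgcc

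The motif was searched in windows of 300 bases, from 250 before to 50 after each start, where a match on one strand is also a match on the other. It was found in 1 of the 12 windows annotated for 9 of the members, that of *Ivd*, where it starts 88 bases before the RefSeq start. Of all 32851 windows, 2726 (8.30%) held it. *Dbt* had no entry. In the 250 bases before the start, the G and C content was 51.2% for *Ivd* and 63.2% for the window of *Bckdhb* shown, against a median of 52.4% over all windows. A match of letters describes the sequence and does not show that a factor binds there. The higher value of *Ivd* in cKO was known before the motif was searched.

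Values are FPKM, fragments scaled by gene length and library size. Levels compared between genes thus depend on the length given to each gene in the deposited table. Between 16289408 and 17944775 reads fell on genes in each sample, and 1 read on a gene of 1 kilobase was worth an FPKM of 0.0553 to 0.0636. Genotypes were compared with limma on log2(FPKM + 1), a scale that understates differences of low genes, over 21211 genes whose FPKM averaged 0.1 or more. A call was an adjusted p under 0.05 (Benjamini-Hochberg), which 0 genes (0%) reached, and 2 genes reached it with limma's voom on reads read back from FPKM. At an unadjusted p under 0.05, 7.40% of genes differed, 4.33% higher and 3.07% lower in cKO, so 58.5% of such genes were higher. That share was 82.0% with voom, where the median log2 difference of all genes was 0.07 against -0.01 on log2(FPKM + 1). It was 51.6% without Ctrl replicate 1 and 48.6% without Ctrl replicate 3, where more genes were lower (857) than higher (811). In 13.1% of genes the ranges of Ctrl and cKO were apart, the share to set beside each gene named without overlap below. *Parn* had an FPKM of 6.64, 8.34 and 7.38 in Ctrl against 4.97, 4.61 and 6.15 in cKO, with every cKO sample below every Ctrl sample (log2 difference -0.44, limma unadjusted p = 0.0135, adjusted p = 0.545). Ctrl replicate 1 stood apart, with a summed FPKM of 6 leukocyte markers of 889 against 144 to 242 in the other samples. Nothing in the labels says that samples came from separate animals, so the p-values measure the spread between these samples.

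Of the 8 other members tested, 1, *Bckdhb*, was higher in cKO at an unadjusted p under 0.05 and 0 were lower, beside 4.33% and 3.07% of all genes, and 0 of 8 passed the adjusted threshold. The same gene was the only one of the 8 without overlap between genotypes, a share near the 13.1% of all genes. The median log2 difference of the 8 was 0.05, and that of all genes tested was -0.01. In the plot of each sample, *Ivd* and *Bckdhb* are the panels in which the colours separate.

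**Figure D1:**
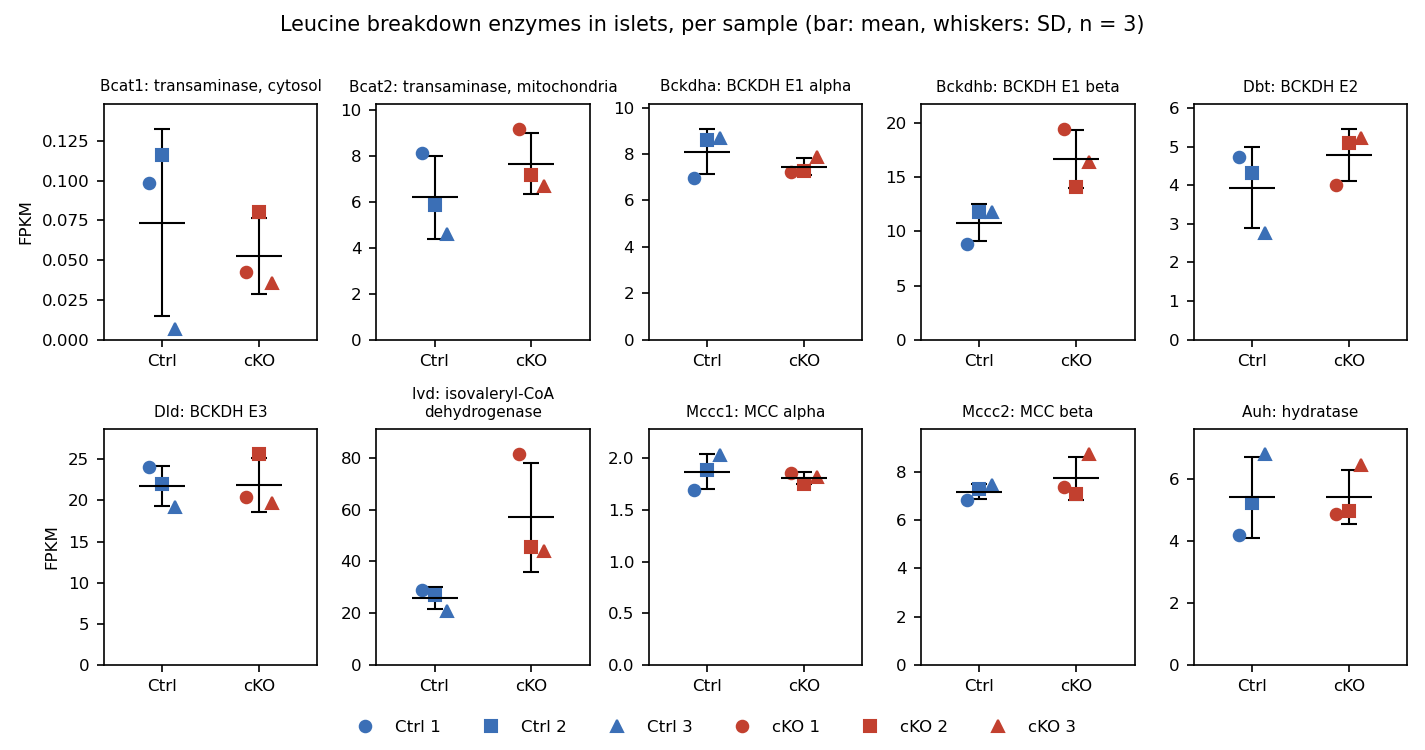
FPKM of the 10 genes (y axis, each panel from 0 on its own scale) in 3 Ctrl (blue) and 3 cKO (red) islet samples, with the symbol giving the replicate number, the bar the mean and the whiskers the SD. All 3 cKO samples lie above all 3 Ctrl samples for Ivd (44.1 to 81.3 against 20.9 to 29.1) and Bckdhb (14.1 to 19.4 against 8.80 to 11.8), and the groups overlap in the other 8 panels.

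Ranked by mean FPKM over the 6 samples, the order of the members was *Ivd* (41.3), *Dld* (21.8), *Bckdhb* (13.7), *Bckdha* (7.77), *Mccc2* (7.46), *Bcat2* (6.93), *Auh* (5.40), *Dbt* (4.36), *Mccc1* (1.84) and *Bcat1* (0.0632). This order depends on the gene lengths used. *Ivd* lay above *Dld*, *Dld* above *Bckdhb*, and *Bckdhb* above *Bckdha* in 6 of 6 samples. From *Bckdha* to *Dbt*, each pair of neighbours changed places in at least 1 sample, although *Bckdha* and *Mccc2* lay above *Auh* and *Dbt*, and *Bcat2* above *Dbt*, in every sample. *Dbt* lay above *Mccc1* and *Mccc1* above *Bcat1* in 6 of 6 samples, with no overlap of their ranges.

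Of the transaminases, *Bcat2* was read throughout and *Bcat1* was close to the limit of detection. *Bcat1* had an FPKM of 0.0984, 0.116 and 0.00645 in Ctrl against 0.0427, 0.0802 and 0.0356 in cKO, from 16, 17 and 1 reads and from 7, 13 and 6 reads. At this depth the gene was under the minimum mean FPKM of 0.1 and was not tested. Its exons overlap those of *Gm26666* on the opposite strand, and whether the counting used strand is not given in the sources used here. *Bcat2* (chr7:45570153-45589711), the mitochondrial enzyme, had an FPKM of 8.13, 5.87 and 4.59 in Ctrl against 9.17, 7.17 and 6.68 in cKO, with overlapping groups. The means were 6.20 ± 1.79 (SD, n = 3) and 7.67 ± 1.32, a log2 difference of 0.29 (95% interval -0.20 to 0.77, limma adjusted p = 0.820). The log2 difference of *Bcat2* was 0.47 without Ctrl replicate 1 (limma unadjusted p = 0.0360), 0.12 without Ctrl replicate 3 (limma unadjusted p = 0.548) and 0.17 without cKO replicate 1 (limma unadjusted p = 0.486). Exons of *Bcat2* overlap those of *0610005C13Rik* on the opposite strand.

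Within BCKDH, *Bckdhb* was the 1 subunit gene of 4 that differed at an unadjusted p under 0.05, with the higher level in cKO. *Bckdhb* (ENSMUSG00000032263, chr9:83925145-84124240 of GRCm38) encodes the β chain, which completes the thiamine-dependent active site together with the α chain. In Ctrl islets it stood at 8.80, 11.8 and 11.8 FPKM, from 277, 336 and 355 reads, and in cKO islets at 19.4, 14.1 and 16.4 FPKM, from 616, 442 and 536 reads. The lowest cKO sample, replicate 2, lay above the highest Ctrl sample, and the highest was cKO replicate 1. The means were 10.8 ± 1.75 (SD, n = 3) and 16.6 ± 2.68, a ratio of 1.54, with a log2 difference of 0.58 (standard error 0.158, 95% interval 0.20 to 0.96). The unadjusted limma p was 0.00910 and the adjusted p was 0.502, with a range of 0.236 to 0.876 over 15 alternatives. The unadjusted p stayed under 0.05 in 15 of 15 alternatives, including 6 of 6 fits that left out 1 sample, where the log2 difference was 0.45 to 0.69. No exon of another annotated gene overlaps an exon of *Bckdhb*.

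*Bckdha*, the α chain that binds the cofactor and carries the serine residues phosphorylated by the BCKDH kinase, lies at chr7:25629946-25658981. Its FPKM was 6.97, 8.60 and 8.70 in Ctrl against 7.22, 7.27 and 7.86 in cKO, so the cKO samples lay inside the range of Ctrl. The log2 difference was -0.10 (95% interval -0.36 to 0.16, limma adjusted p = 0.860), and without Ctrl replicate 1 it was -0.19 (limma unadjusted p = 0.0592). Exons of *B3gnt8* overlap *Bckdha* on the opposite strand. *Dbt* (chr3:116513070-116549981), the E2 core with the acyltransferase activity, had an FPKM of 4.74, 4.31 and 2.76 in Ctrl against 3.996, 5.10 and 5.22 in cKO. Ctrl replicate 3 was the low sample of *Dbt*, and the log2 difference was 0.24 with it (95% interval -0.21 to 0.69, limma adjusted p = 0.820), 0.06 without it and 0.36 without Ctrl replicate 1. *Dld* (chr12:31331277-31351453), the E3 that reoxidises lipoamide, had an FPKM of 24.0, 21.99 and 19.2 in Ctrl against 20.4, 25.6 and 19.7 in cKO. Its means of 21.7 ± 2.41 and 21.9 ± 3.24 (SD, n = 3) gave a log2 difference of 0.00 (95% interval -0.31 to 0.32, limma adjusted p = 0.998).

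Ratios within a sample do not depend on the scaling between samples. The FPKM of *Bckdha* was 0.793, 0.727 and 0.736 times that of *Bckdhb* in Ctrl against 0.372, 0.516 and 0.479 times in cKO. Every cKO ratio was below every Ctrl ratio, a mean log2 shift of -0.74 (exact two-sided permutation test, p = 0.1, the smallest that 3 samples against 3 allow, adjusted p = 0.40 over 6 ratios). For *Bckdha* to *Dbt* the ratio was 1.47, 1.996 and 3.15 in Ctrl against 1.81, 1.42 and 1.51 in cKO, with overlap (exact permutation p = 0.3). That of *Dld* to *Dbt* was 5.07, 5.10 and 6.95 in Ctrl against 5.10, 5.02 and 3.77 in cKO (exact permutation p = 0.2). *Dld*, whose product also serves other complexes, was the most abundant BCKDH transcript in each of the 6 samples.

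**Figure D2:**
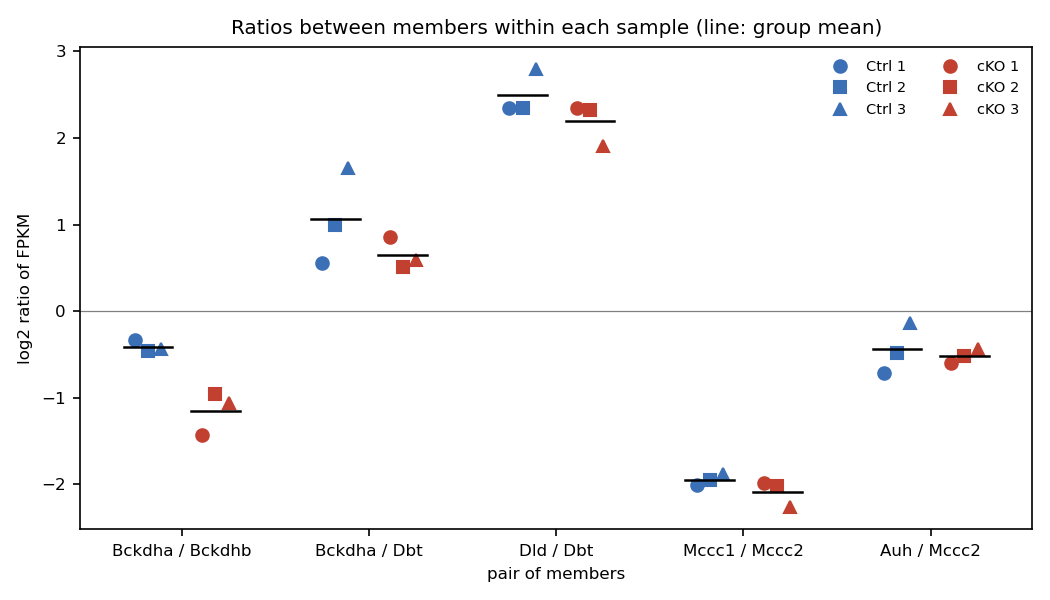
Log2 ratio of FPKM between pairs of members within each sample (y axis), with Ctrl in blue, cKO in red and the line at the group mean. The Bckdha to Bckdhb ratios of cKO (log2 mean -1.15) lie below those of Ctrl (-0.41) without overlap, and the groups overlap in the other 4 pairs.

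BCKDH activity is set by a kinase that switches the complex off (*Bckdk*) and a phosphatase that switches it on (*Ppm1k*). *Bckdk* had an FPKM of 14.6, 15.8 and 18.7 in Ctrl against 19.1, 9.25 and 19.1 in cKO, where replicate 2 was the lowest of the 6 samples and the other cKO samples the highest. *Ppm1k* was between 2.33 and 2.76 in all 6 samples. The log2 differences were -0.11 for *Bckdk* (limma adjusted p = 0.953) and 0.03 for *Ppm1k* (limma adjusted p = 0.964).

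*Ivd* (ENSMUSG00000027332, chr2:118861954-118882909 of GRCm38) encodes the flavoprotein that oxidises isovaleryl-CoA to 3-methylcrotonyl-CoA. Its FPKM was 29.1, 27.1 and 20.9 in Ctrl, from 2795, 2346 and 1916 reads, and 81.3, 45.4 and 44.1 in cKO, from 7860, 4350 and 4393 reads. Replicate 1 was the highest sample in either genotype. Against the Ctrl mean, the cKO samples were 3.16, 1.77 and 1.72 times as high. The means were 25.7 ± 4.26 (SD, n = 3) and 56.9 ± 21.1, a ratio of 2.22 and a log2 difference of 1.07, and without cKO replicate 1 the log2 difference was 0.79. These values are the ones on which the gene was selected. No other annotated gene overlaps *Ivd*.

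IVD belongs to the acyl-CoA dehydrogenases, a family of flavoproteins that includes enzymes of fatty acid, isoleucine, valine and lysine oxidation. *Ivd* made up 25.6%, 24.1% and 20.6% of the summed FPKM of the 12 family genes measured in Ctrl islets against 47.2%, 35.3% and 33.7% in cKO islets. The sum of the other 11 was 80.7 to 85.4 in Ctrl and 83.3 to 91.0 in cKO, with overlap. The median log2 difference of these 11 was 0.04. At an unadjusted p under 0.05, 1 was higher in cKO and 0 were lower, beside 4.33% and 3.07% of all genes. That gene was *Gcdh*, glutaryl-CoA dehydrogenase of lysine breakdown, at 16.6, 13.5 and 13.2 FPKM in Ctrl against 19.0, 18.3 and 19.6 in cKO, where every cKO sample lay above every Ctrl sample (log2 difference 0.38, limma unadjusted p = 0.0101, adjusted p = 0.511). The relatives that act on the other branched chains, *Acadsb* for isoleucine and *Acad8* for valine, had log2 differences of 0.06 and 0.14 with limma adjusted p values of 0.901 and 0.852. Those of fatty acid oxidation, *Acads*, *Acadm*, *Acadl* and *Acadvl*, had log2 differences of -0.13, 0.04, -0.13 and -0.06. Electrons from IVD pass through *Etfa*, *Etfb* and *Etfdh*, which had log2 differences of -0.17, -0.17 and -0.04, none at an unadjusted p under 0.05.

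None of the 3 members after *Ivd* passed an unadjusted p under 0.05, beside 7.40% of all genes, and in each the genotypes overlapped. *Mccc1* (chr3:35959312-36000678), the biotin-carrying α subunit of MCC, had an FPKM of 1.70, 1.89 and 2.03 in Ctrl against 1.86, 1.75 and 1.82 in cKO, so cKO lay inside the range of Ctrl. Its log2 difference was -0.03 (95% interval -0.29 to 0.23, limma adjusted p = 0.969), and exons of *B230207O21Rik*, *Gm15952* and *Mccc1os* overlap it on the opposite strand. *Mccc2* (chr13:99948530-100015639), the β subunit with the carboxyltransferase site, had an FPKM of 6.83, 7.28 and 7.44 in Ctrl against 7.35, 7.10 and 8.72 in cKO (log2 difference 0.09, 95% interval -0.15 to 0.33, limma adjusted p = 0.875). The FPKM of *Mccc1* was 0.248 to 0.273 times that of *Mccc2* in Ctrl and 0.208 to 0.253 times in cKO, with overlap (exact permutation p = 0.2). Their reads were close in number, 1019 and 1002 in Ctrl and 1052 and 1150 in cKO. The ratio thus follows largely from the lengths given, 10952 and 2802 bases. *Auh* (chr13:52835119-52929681), which encodes the 3-methylglutaconyl-CoA hydratase and an RNA-binding protein of AU-rich elements, had an FPKM of 4.17, 5.23 and 6.78 in Ctrl against 4.86, 4.97 and 6.42 in cKO. Its means were 5.39 ± 1.31 and 5.42 ± 0.874 (SD, n = 3), with a log2 difference of 0.02 (95% interval -0.41 to 0.44, limma adjusted p = 0.991). The FPKM of *Ivd*, with a length of 5505 bases, was 17.2, 14.4 and 10.3 times that of *Mccc1* in Ctrl. In cKO it was 43.7, 25.9 and 24.3 times as high.

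Beyond *Auh*, the genes *Oxct1* and *Acat1*, whose products activate acetoacetate and cleave acetoacetyl-CoA, and *Hmgcll1* did not pass an unadjusted p under 0.05. *Acat1* had 23.4, 30.6 and 28.2 FPKM in Ctrl against 20.6, 23.5 and 23.0 in cKO (log2 difference -0.28, limma unadjusted p = 0.0526, adjusted p = 0.682). *Hmgcll1* had 1.98, 2.43 and 2.59 in Ctrl against 2.61, 2.93 and 3.15 in cKO, without overlap (log2 difference 0.23, limma unadjusted p = 0.107, adjusted p = 0.744).

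Over the whole route, from uptake to electron transfer, 33 genes that are not among the 10 were tested. Of these, 2 were higher and 0 lower in cKO at an unadjusted p under 0.05, beside 4.33% and 3.07% of all genes, and 0 passed the adjusted threshold. By sign, 14 were higher and 19 lower, with a median log2 difference of -0.04. *Slc7a8*, a light chain of the exchangers that carry large neutral amino acids such as leucine, had an FPKM of 25.7, 22.7 and 28.6 in Ctrl against 32.5, 38.6 and 36.1 in cKO, without overlap. Its log2 difference was 0.47 (standard error 0.112, limma unadjusted p = 0.00505, adjusted p = 0.454). The related light chain *Slc7a5* had 20.6, 33.4 and 38.4 in Ctrl against 26.2, 24.2 and 25.5 in cKO, and the shared heavy chain *Slc3a2* had 40.2 to 49.4 and 46.8 to 50.3, both with overlap. The other gene was *Ehhadh*, a peroxisomal enzyme of fatty acid oxidation placed in the list for its hydratase and dehydrogenase activities, at 8.56, 9.02 and 7.36 FPKM in Ctrl against 21.5, 18.2 and 23.7 in cKO, without overlap. Its log2 difference was 1.25 (limma unadjusted p = 3.34e-05, adjusted p = 0.274). The mitochondrial enzymes of the same steps, *Echs1* and *Hadha*, had log2 differences of -0.14 and -0.06.

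**Figure D3:**
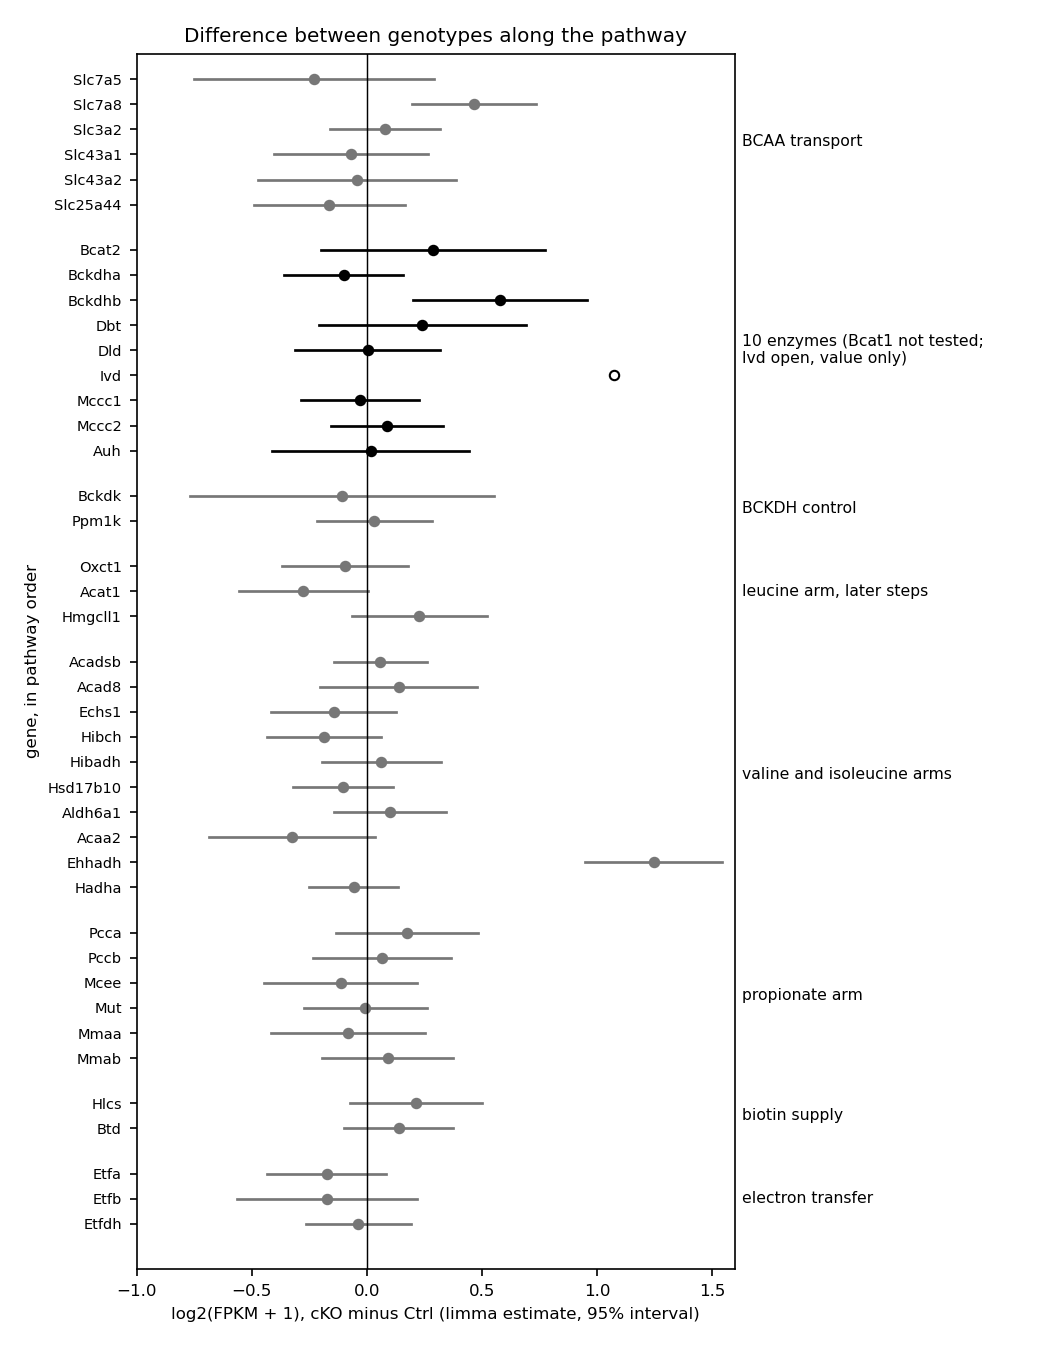
Difference in log2(FPKM + 1) between cKO and Ctrl (x axis, points with 95% limma intervals) for 9 of the 10 enzymes (black) and other genes of the pathway (grey), grouped by step along the y axis. Intervals of Bckdhb (0.20 to 0.96), Slc7a8 (0.20 to 0.73) and Ehhadh (0.95 to 1.54) lie above 0; Ivd is an open point without interval because it was selected on this difference.

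Isoleucine and valine share the transaminase and BCKDH with leucine and then take their own route. Of the 10 genes listed for these arms, which include *Ehhadh*, the others gave 0 calls at an unadjusted p under 0.05, beside 7.40% of all genes. *Hibch*, the valine-specific hydrolase, was the only one with every cKO sample (2.26 to 2.55 FPKM) below every Ctrl sample (2.64 to 3.02), at a limma adjusted p of 0.761. The 6 genes of propionate disposal, such as the carboxylase subunits *Pcca* and *Pccb* and the mutase *Mut*, had log2 differences of -0.11 to 0.18. *Hlcs* and *Btd*, which attach biotin to carboxylases such as MCC and recycle it, had 0.21 and 0.14. *Klf15*, a transcription factor known to control branched-chain amino acid breakdown in muscle, had an FPKM of 3.61, 2.64 and 3.42 in Ctrl against 4.81, 4.10 and 4.28 in cKO, without overlap (log2 difference 0.36, limma unadjusted p = 0.0283, adjusted p = 0.612). Among 9 genes of the other complexes that use DLD, 1 was higher at an unadjusted p under 0.05, beside 4.33% of all genes. It was *Ogdh* of the α-ketoglutarate dehydrogenase complex, with 27.6, 27.95 and 29.3 FPKM in Ctrl against 39.5, 32.1 and 32.0 in cKO (log2 difference 0.27, limma adjusted p = 0.641). Neither the 6 glutamate partners, *Glud1* among them, nor the 9 leucine sensing genes held a gene at an unadjusted p under 0.05, beside 7.40% of all genes. Their median log2 differences were -0.0735 and -0.00201.

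Across the 6 samples, *Bckdhb* was nearest to *Ivd* in profile among the members whose FPKM averaged 5 or more. Likeness was measured as the root mean square difference of log2(FPKM + 1), centred on each gene's mean, over 6821 genes whose FPKM averaged 5 or more. *Dbt*, *Mccc1* and *Bcat1* were below this level and have no place. The distance uses the values on which *Ivd* was selected, so genes higher in cKO tend to lie near it by construction. The 5 nearest genes were *Aqp4* (0.219), *Hist1h1c* (0.223), *Wipi1* (0.246), *Pamr1* (0.255) and *Gfra3* (0.256), whose names were fixed by this rule and whose differences are therefore not tested. *Bckdhb* was at 0.394, place 71, and *Bcat2* at 0.435, place 123. *Mccc2*, *Dld*, *Bckdha* and *Auh* were at places 2259, 3085, 5000 and 5289. *Bckdhb* and *Bcat2* had their highest value in cKO replicate 1, as *Ivd* had, but *Bckdhb* was lowest in Ctrl replicate 1 and *Bcat2* and *Ivd* in Ctrl replicate 3.

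**Figure D4:**
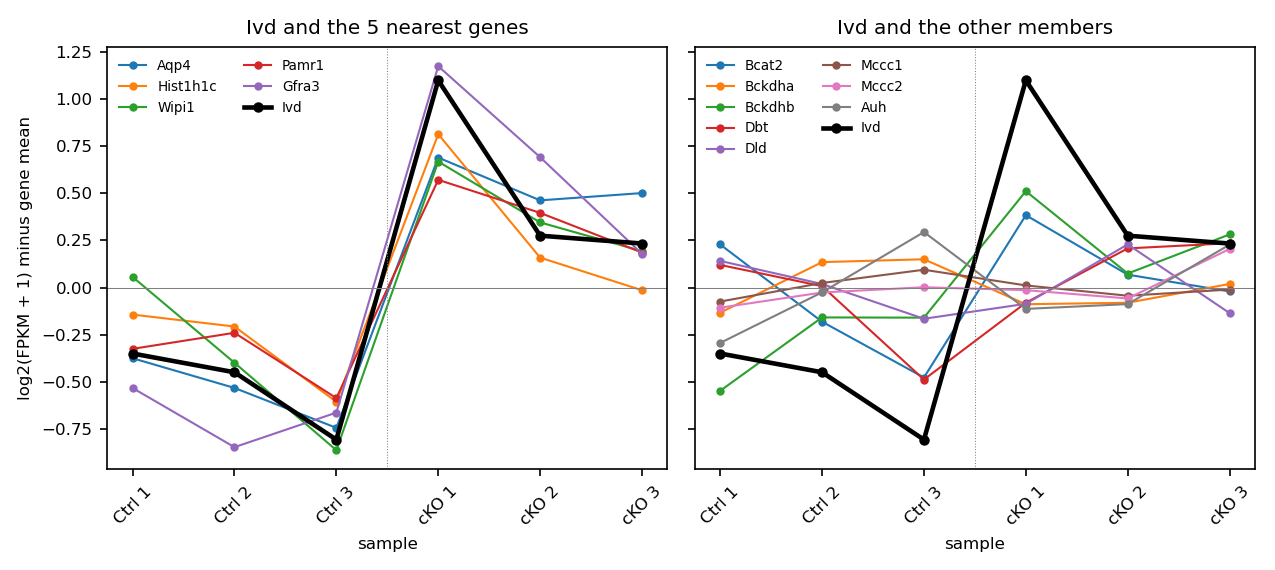
Log2(FPKM + 1) minus the gene's mean (y axis) in each sample (x axis), for Ivd with its 5 nearest genes (left) and with 8 other members (right); lines join the values of a gene for tracing and imply no order of samples. Ivd (black) and all 5 nearest genes are highest in cKO replicate 1, whereas among the members shown on the right only Bckdhb and Bcat2 are.

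A list of 9 genes of the prolactin pathway and its β cell targets, set up beside *Ivd* with its pattern already known, was also read. Of these, 6 were higher at an unadjusted p under 0.05 and 0 were lower, beside 4.33% and 3.07% of all genes, which is not independent evidence of a direction. The prolactin receptor gene *Prlr* had 27.1, 14.7 and 24.9 FPKM in Ctrl against 33.9, 33.4 and 43.8 in cKO (log2 difference 0.75, limma unadjusted p = 0.0183, adjusted p = 0.553). *Cish*, a feedback inhibitor and target of STAT5, had 9.58, 16.0 and 18.5 FPKM in Ctrl against 34.2, 21.9 and 20.1 in cKO (log2 difference 0.76, limma unadjusted p = 0.0340, adjusted p = 0.631). The growth hormone receptor gene *Ghr* and the transducers *Stat5a* and *Stat5b* had log2 differences of -0.34, -0.22 and -0.07, none at an unadjusted p under 0.05. For *Prlr* and *Cish*, every cKO sample lay above every Ctrl sample, and cKO replicate 1 was the highest for *Cish*, as it was for *Ivd*, and replicate 3 for *Prlr*.

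Levels in whole islets depend on the cells they hold, and fewer cells of a type cannot be told apart from less RNA per cell. The β cell markers were present in all samples, and their summed FPKM, most of it insulin, was 195134 to 217318 in cKO, below the 235639 to 275948 of Ctrl. At an unadjusted p under 0.05, 1 of 9 was lower and 0 were higher, beside 3.07% and 4.33% of all genes. The 8 acinar markers summed to 31268 in cKO replicate 1, 8553 in replicate 2 and 25982 in replicate 3, against 6901 to 18776 in Ctrl. Of these, 0 of 8 passed an unadjusted p under 0.05, beside 7.40% of all genes. The 5 endothelial markers summed to 135 to 166 in cKO and 115 to 134 in Ctrl, and the 5 stromal markers to 11.0 to 35.9 and 7.37 to 14.6. At an unadjusted p under 0.05, 2 of 5 and 1 of 5 were higher, beside 4.33% of all genes. No gene of these 4 lists was at 0 in a sample. The part of the acinar, endothelial, stromal and β cell RNA in the values above was not tested. *Xist*, read from the inactive X chromosome, was 20.4 FPKM or more in 5 samples and 0.139 in cKO replicate 3, and the Y-linked *Eif2s3y* was 5.95, 5.24 and 0 in Ctrl against 1.41, 0 and 14.1 in cKO. Both were thus read in Ctrl replicates 1 and 2 and in cKO replicate 1, and neither followed the genotype. RNA of both sexes was read in these samples, and the labels do not say whether each held more than 1 animal. The mix of sexes differed between samples and entered none of the comparisons.

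Repeating the comparison under 15 alternatives left *Bckdhb* above 0 throughout, whereas *Dld*, *Mccc1* and *Auh* changed sign in 2 alternatives each.

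**Figure D5:**
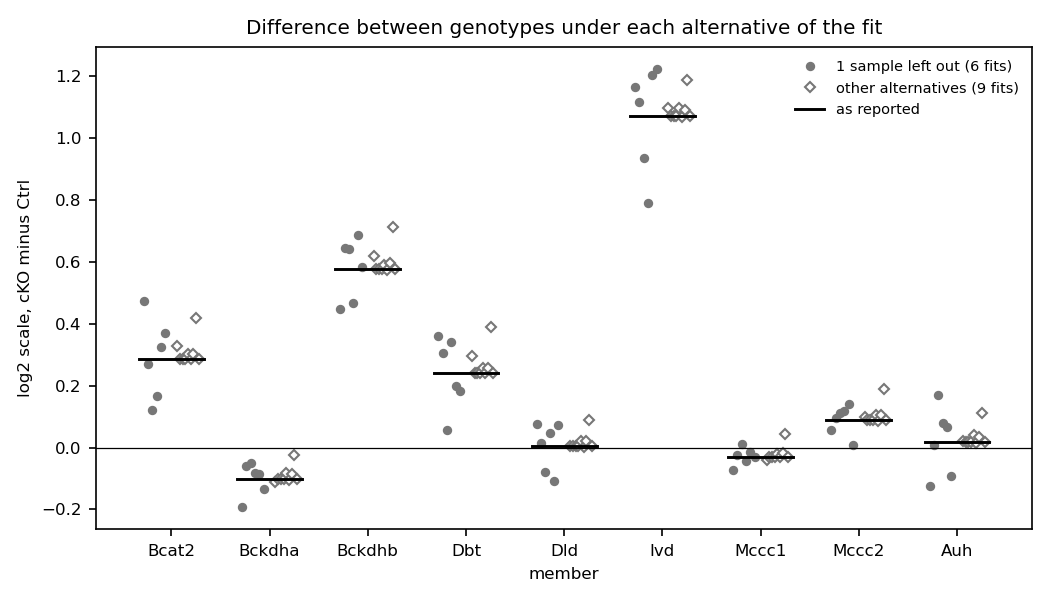
Difference in log2 expression between cKO and Ctrl (y axis) for 9 members (x axis), as reported (line), with 1 sample left out in turn (6 filled points) and under 9 other alternatives of the fit (open points). Ivd stays between 0.79 and 1.22 and Bckdhb between 0.45 and 0.71, whereas Dld, Mccc1 and Auh lie on both sides of 0. The groups of Ivd and Bckdhb do not overlap, so leaving out 1 sample cannot change their sign.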

How the data were processed

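Total RNA of islets (TRIzol) was made into libraries with a SMARTER mRNA kit by the authors, who deposited FPKM values per gene for 3 Ctrl and 3 cKO samples, on GRCm38 (mm10). The aligner, counting tool and annotation release are not given in the sources used here, and replicates were not pooled. FPKM times gene length was a whole multiple of 1 read for 100% of values (tolerance 0.02), and reads were read back from it for depth and for 1 alternative.

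Genotypes were compared on log2(FPKM + 1) with limma 3.58.1 in R 4.3.3 (two-sided, with an empirical Bayes trend) for genes whose FPKM averaged 0.1 or more, with Benjamini-Hochberg adjustment. The code was tested on simulated data. Ratios were compared by exact permutation tests. Figures were drawn with matplotlib 3.10.9. Overlaps between genes were read from GENCODE M21 (GRCm38). Named genes were the 10 members, *Parn*, genes of the listed pathway groups at an unadjusted p under 0.05, the acyl-CoA dehydrogenases and the 5 genes nearest to *Ivd*. Other listed genes were added to complete a step, and *Prlr*, *Cish*, *Ghr*, *Stat5a*, *Stat5b*, *Hmgcll1*, *Hibch*, *Ins2*, *Iapp*, *Xist* and *Eif2s3y* after their values were seen. A gene that was tested and counted is not reported here by name. Members and lists were chosen with earlier results of these data known. The alternatives were other pseudocounts, filters, scalings and models, a replicate block, and leaving out each sample.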

Additional observations from a re-analysis of the deposited data

How the results depend on the processing

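Over 15 alternatives the log2 difference was 0.79 to 1.22 for *Ivd* and 0.45 to 0.71 for *Bckdhb*. In both, every cKO sample lay above every Ctrl sample, so leaving out 1 sample could not reverse the sign. The filters, the fit without trend and the replicate block do not change these estimates. *Bcat2*, whose groups overlap, kept its sign in 15 of 15 (0.12 to 0.47). With 1 sample left out, *Dld* ranged from -0.11 to 0.076, *Mccc1* from -0.074 to 0.011 and *Auh* from -0.13 to 0.17, and with voom *Mccc1* was 0.044. The log2 shift of *Bcat1* to *Bcat2*, -0.09, ranged from -1.24 to 0.66, and that of *Auh* to *Mccc2*, -0.08, from -0.21 to 0.077.

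With voom, 2 genes were higher at an adjusted p under 0.05, of which 1, *Ehhadh*, was in the pathway list (limma adjusted p = 0.0361). At an unadjusted p under 0.05, voom gave 1499 higher and 328 lower genes in place of 919 and 651, and 4 higher pathway genes in place of 2. Voom was scaled by the reads on genes, which differed from the library size behind FPKM. They were 16470783 against 15731223 in Ctrl replicate 2 and 16289408 against 17386442 in cKO replicate 2. The median log2 difference of all genes was 0.07 with voom and -0.01 on log2(FPKM + 1). The part of this scaling in the counts was not tested. With no filter, 1 pathway gene was lower in place of 0. With 1 sample left out, 0 to 1 genes were higher at an adjusted p under 0.05, 402 to 1173 were lower at an unadjusted p, 1 to 2 of the other members were higher, and 0 to 3 pathway genes were lower. Leaving out Ctrl replicate 1 gave the 2 members (*Bckdhb*, *Bcat2*) and the 3 lower pathway genes.

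The labels give the genotypes the same replicate numbers, but nothing pairs the animals, and deviations of same-numbered samples correlated at -0.17, -0.022 and -0.065. With the replicate block, 737 genes were higher and 538 lower at an unadjusted p under 0.05, 1 member other than *Ivd* was higher (*Bckdhb*), and 1 pathway gene was lower in place of 0. With 3 samples a group, differences within the intervals given could not be detected.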
